A study of Danio rerio with 6 samples.

Results

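The genes lamp1a, lamp1b, lamp2, npc1, npc2, scarb2a, scarb2b, scarb2c, tmem192 and ctns encode proteins of the lysosomal membrane and of cholesterol export from the lysosome, and they were read by symbol from a gene expression table of zebrafish RNA sequencing. All 10 symbols had a row among the 25645 genes of the table, and all 10 were among the 21104 genes that had enough counts to be tested. The study compared 3 samples of fish homozygous for pikfyve-delta8, an allele made with CRISPR/Cas9 that leaves Pikfyve without its phosphatidylinositol phosphate kinase domain, with 3 wild-type (WT) samples. The labels give no tissue, age or strain and do not say whether the samples of a genotype came from separate animals, so that p-values rest on a sample-to-sample spread that could be technical.

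The lysosome is bounded by a membrane whose most abundant proteins, the heavily glycosylated LAMP proteins, line its inner face. Cholesterol freed inside the lysosome is picked up by the soluble protein Npc2 and handed to the membrane protein Npc1, which moves it out. In mammals LIMP-2, the product of SCARB2, carries glucocerebrosidase to the lysosome, and cystinosin, the product of CTNS, exports cystine. Pikfyve is a lipid kinase of endosomes and lysosomes, and in many cell types its loss leaves these organelles swollen.

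Of the 10 genes, 9 were higher in the pikfyve-delta8 samples and none was lower (edgeR quasi-likelihood test, Benjamini-Hochberg adjusted p under 0.05), while scarb2b was not called. Over all tested genes, 25.1% were called higher and 23.0% lower. The median log2 fold change (pikfyve-delta8 minus WT) was 0.95 over the 10 genes and 0.0039 over all tested genes. In 8 of the 10 every pikfyve-delta8 sample lay above every WT sample, against 30.1% of all tested genes with that order. A log2 fold change of at least 1 was reached by 3 genes, lamp1a, lamp2 and ctns, against 7.43% of all tested genes that were called higher by at least that much.

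The 6 libraries held 14677252 to 14949605 estimated counts, and 1 count was worth 0.0635 to 0.0728 CPM (counts scaled by library size and TMM factor). The members' estimated counts were whole numbers in all 6 samples. The pikfyve transcript itself was at 61.2, 63.2 and 73.6 CPM in pikfyve-delta8 samples and at 56.6, 53.8 and 52.1 CPM in WT samples, and a gene total does not show the edited bases. Its log2 fold change, pikfyve-delta8 minus WT, was 0.29 ± 0.09 (SE; adjusted p = 0.0209, edgeR), a call lost under 7 of the 17 alternatives, library size alone among them (adjusted p = 0.270). Markers of several cell types were also counted, against 25.1% called higher and 23.0% called lower over all tested genes. For neutrophils, 8 of 9 tested markers were higher in pikfyve-delta8 samples and 0 lower. Summed over the 13 neutrophil markers with a row, tested or not, the level was 392 to 551 TPM in pikfyve-delta8 samples. In WT samples this sum was 124 to 131 TPM (TPM, a level scaled by transcript length). Of 13 tested macrophage and microglia markers 4 were higher and 4 lower. The 17 markers of that list with a row summed to 114 to 167 TPM in pikfyve-delta8 samples and 101 to 117 TPM in WT samples. The gene with the most TPM in that list was grn1. Without it, the other 16 summed to 68.5 to 106 TPM in pikfyve-delta8 samples and 85.2 to 100.5 TPM in WT samples. Of 8 genes listed as markers of lysosome-rich enterocytes, gut cells that take up protein, 3 (ctsbb, fabp6 and slc10a2) were higher and 2 (cubn and dab2) lower. Whether each listed gene is particular to these cells, and not to other enterocytes, was not tested. The median log2 fold change of these 8 genes was -0.19. Their sum was 681 to 985 TPM in pikfyve-delta8 samples and 431 to 588 TPM in WT samples, but most of it was fabp6, at 620 to 914 TPM in pikfyve-delta8 samples and 363 to 517 TPM in WT samples. The other 7 summed to 61.0 to 70.9 TPM in pikfyve-delta8 samples and 68.3 to 70.5 TPM in WT samples. Of 9 hepatocyte markers 4 (cp, fga, fgb and fgg) were higher and 2 (tfa and serpina1) lower. Their sums were 12760 to 13260 TPM in pikfyve-delta8 samples and 14680 to 15840 TPM in WT samples, over all 9 markers. Most of this sum was apoa2, at 7531 to 8663 TPM in pikfyve-delta8 samples and 9448 to 10250 TPM in WT samples. In CPM apoa2 was not called (log2 fold change -0.09, adjusted p = 0.392, edgeR). The sums of the other 8 hepatocyte markers barely overlapped, at 4564 to 5227 TPM in pikfyve-delta8 samples and 5222 to 5585 TPM in WT samples. All 7 photoreceptor markers and all 7 neuron markers were lower. The photoreceptor markers summed to 945 to 1374 TPM in pikfyve-delta8 samples and 4996 to 5173 TPM in WT samples. The neuron markers summed to 315 to 445 TPM in pikfyve-delta8 samples and 657 to 675 TPM in WT samples. No marker was at 0 in every sample. In bulk RNA, more cells of a type and more RNA per cell cannot be told apart, and the part of these cell types in the results below was not tested.

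**Figure D1:**
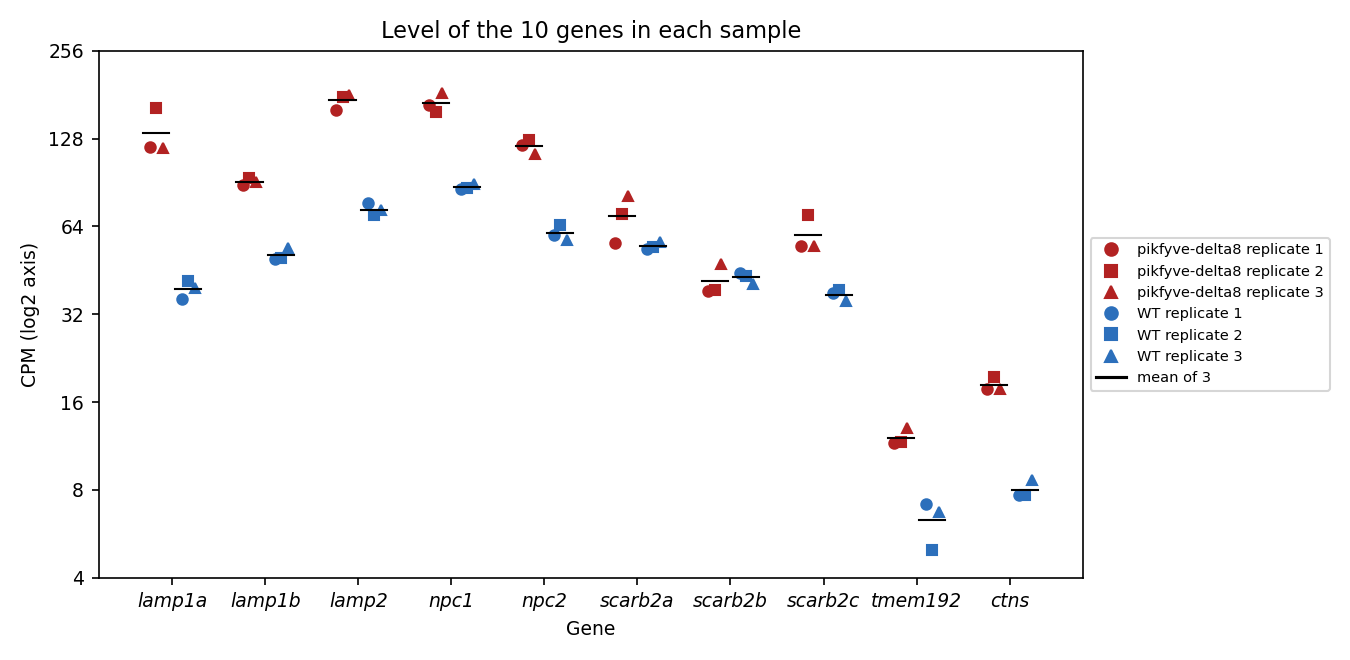
Level of each of the 10 genes in CPM (log2 axis) in every sample, with pikfyve-delta8 samples in red to the left of WT samples in blue; the symbol gives the replicate number and the black line the mean of 3. The genotypes are apart for every gene except scarb2a, where pikfyve-delta8 replicate 1 at 56.4 CPM sits within the WT range, and scarb2b, where they are mixed.

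The genes lamp1a, lamp1b and lamp2 rose, and lamp1a had the largest fold change of the 10. Lamp1 and Lamp2 are the main structural glycoproteins of the lysosomal membrane, and in mammals a LAMP2 isoform is also the receptor of chaperone-mediated autophagy. Transcripts of lamp1a (Gene ID 324985) were at 119, 164 and 118.5 CPM in pikfyve-delta8 samples, against 36.2, 41.7 and 39.5 CPM in WT samples. The lowest pikfyve-delta8 sample was thus far above the highest WT sample, and replicate 2 stood above the other pikfyve-delta8 samples. The log2 fold change of lamp1a was 1.77 ± 0.13 (SE), a 3.42-fold level (adjusted p = 1.31e-05, edgeR).

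For lamp2 (Gene ID 541406) the values were 160, 178 and 181 CPM in pikfyve-delta8 samples, against 76.8, 70.0 and 72.6 CPM in WT samples. The genotypes did not overlap and the log2 fold change was 1.24 ± 0.08 (adjusted p = 3.53e-06, edgeR), the smallest p of the 10 genes. Its paralogue lamp1b (Gene ID 563328) was at 88.5, 93.7 and 90.6 CPM in pikfyve-delta8 samples, against 49.3, 49.9 and 54.1 CPM in WT samples. These were the closest 3 pikfyve-delta8 samples of any of the 10 genes, with an SD of log2 CPM of 0.041. The log2 fold change of lamp1b was 0.83 ± 0.07 (adjusted p = 1.99e-05, edgeR). By its gene identifier lamp1b lies on the chromosome of pikfyve in the RefSeq assembly GRCz12tu, with 72 protein-coding genes between them, and no other member does.

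The shares of the lamp1 paralogues were compared between genotypes. Per transcript length, lamp1a made up 53.1%, 59.4% and 52.3% of the summed lamp1a and lamp1b TPM in pikfyve-delta8 samples, against 38.0%, 41.2% and 37.9% in WT samples. So lamp1a was above lamp1b in all 3 pikfyve-delta8 samples and below it in all 3 WT samples. The log2 ratio of lamp1a to lamp1b TPM was 0.29 ± 0.23 in pikfyve-delta8 samples and -0.64 ± 0.11 in WT samples (SD, n = 3 each), a difference of 0.93. Its two-sided exact permutation p was 0.1, the smallest that 3 against 3 samples allow, and the adjusted p over the 7 pairs of genes compared was 0.14.

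The ratios of lamp2 to the lamp1 genes were compared in the same way. With 3 against 3 samples none of the 7 pairs of genes could reach a p under 0.05, whatever the values. The log2 ratio of lamp2 to lamp1a TPM was 0.58 ± 0.25 in pikfyve-delta8 samples and 1.1 ± 0.17 in WT samples, whereas that of lamp2 to lamp1b was 0.87 ± 0.07 in pikfyve-delta8 samples and 0.46 ± 0.11 in WT samples (SD, n = 3 each). In both ratios the genotypes did not overlap (exact permutation p = 0.1 each, adjusted p = 0.14). The lamp2 share of the summed TPM of lamp1a, lamp1b and lamp2 was 45.0% ± 2.7 in pikfyve-delta8 samples and 45.6% ± 2.2 in WT samples (SD, n = 3 each). The sum of the 3 genes was 178, 207 and 207 TPM in pikfyve-delta8 samples, against 93.0, 89.0 and 95.0 TPM in WT samples.

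**Figure D2:**
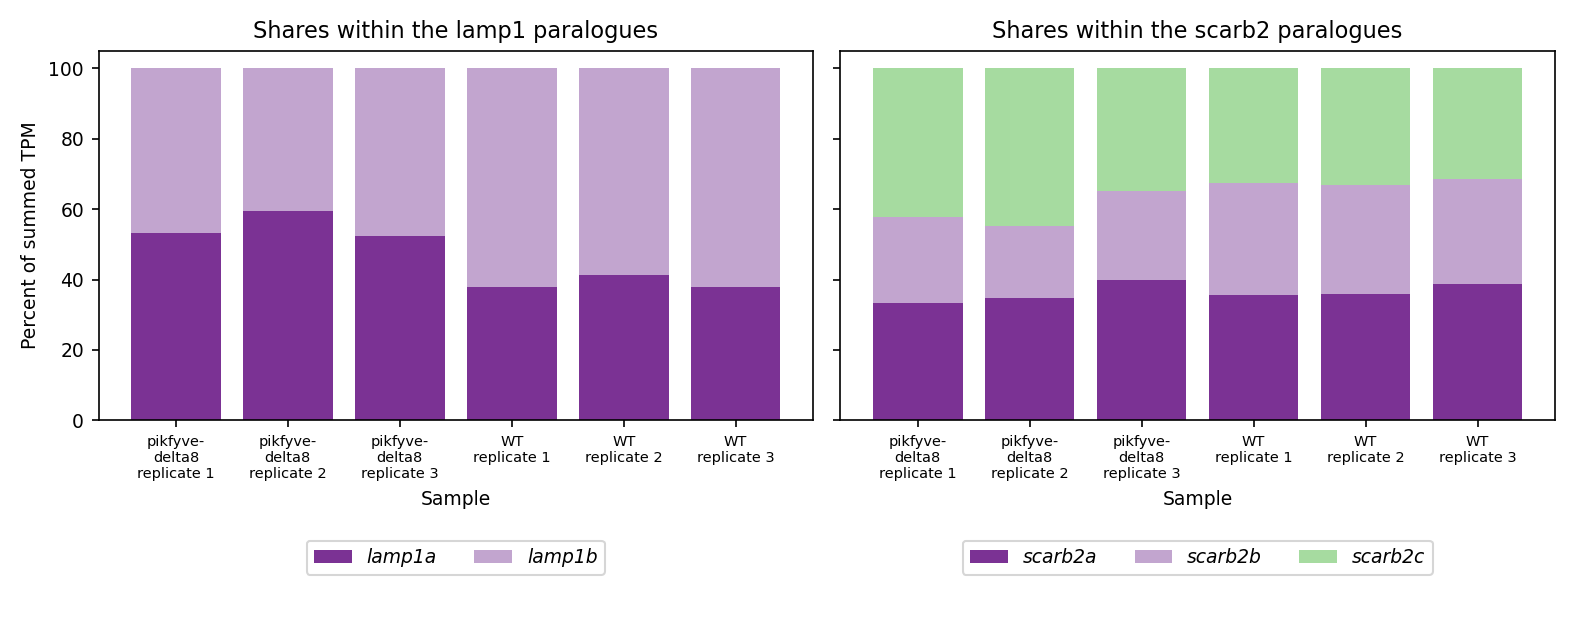
Share of each paralogue in the summed TPM (percent) of the lamp1 genes (left panel) and of the scarb2 genes (right panel), one bar per sample with the pikfyve-delta8 samples left of the WT samples. The lamp1a share is 52.3% to 59.4% in pikfyve-delta8 samples and 37.9% to 41.2% in WT samples, and the scarb2b share is 20.6% to 25.2% in pikfyve-delta8 samples and 30.0% to 31.8% in WT samples.

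Both genes of the cholesterol export pair rose. The npc1 gene (Gene ID 553330), for the membrane protein that exports cholesterol, was at 167, 158 and 183 CPM in pikfyve-delta8 samples, against 86.0, 86.9 and 89.8 CPM in WT samples. The npc2 gene (Gene ID 282673, npc2.1 in GRCz12tu), for the soluble carrier, was at 121, 126 and 113 CPM in pikfyve-delta8 samples, against 59.9, 64.7 and 57.4 CPM in WT samples. Neither gene showed any overlap between genotypes. The log2 fold changes were 0.95 ± 0.08 for npc1 (adjusted p = 1.42e-05, edgeR) and 0.99 ± 0.08 for npc2 (adjusted p = 1.21e-05, edgeR). The log2 ratio of npc2 to npc1 TPM was 2.16 ± 0.17 in pikfyve-delta8 samples and 2.13 ± 0.14 in WT samples (SD, n = 3 each; exact permutation p = 0.8, adjusted p = 0.8). This difference of 0.04 ran from -0.03 to 0.13 when a sample was left out, and it was smaller than the spread between samples.

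Of the scarb2 genes, scarb2c was called higher, scarb2a was called at the margin of the test and scarb2b was not called. Transcripts of scarb2c (Gene ID 337532) were at 54.9, 70.3 and 54.9 CPM in pikfyve-delta8 samples, against 37.9, 38.7 and 35.5 CPM in WT samples. The genotypes did not overlap, and the log2 fold change was 0.68 ± 0.11 (adjusted p = 0.00058, edgeR). The values of scarb2b (Gene ID 564077) were 38.3, 38.9 and 47.5 CPM in pikfyve-delta8 samples, against 44.5, 43.4 and 40.7 CPM in WT samples. Here the pikfyve-delta8 samples lay on both sides of the WT samples, and the log2 fold change of -0.04 had a 95% interval of -0.26 to 0.17 (adjusted p = 0.731, edgeR).

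For scarb2a (Gene ID 192340) the values were 56.4, 70.8 and 81.3 CPM in pikfyve-delta8 samples, against 53.8, 54.4 and 56.7 CPM in WT samples. Replicate 1 of the pikfyve-delta8 samples was within the WT range and the other 2 were above it. The call of scarb2a (log2 fold change 0.34 ± 0.12, adjusted p = 0.0404, edgeR) was lost without any single sample except pikfyve-delta8 replicate 1. Leaving out pikfyve-delta8 replicate 3 gave 0.20 (adjusted p = 0.112), and scaling by library size alone also gave 0.20 (adjusted p = 0.254).

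Within the family, the log2 ratio of scarb2b to scarb2c TPM was -0.79 ± 0.32 in pikfyve-delta8 samples and -0.06 ± 0.03 in WT samples (SD, n = 3 each), with no overlap (exact permutation p = 0.1, adjusted p = 0.14). These paralogues are near neighbours in GRCz12tu, with 1 protein-coding gene between them. The ratio of scarb2a to scarb2b was 0.62 ± 0.16 in pikfyve-delta8 samples and 0.25 ± 0.11 in WT samples on the same scale, also without overlap (exact permutation p = 0.1, adjusted p = 0.14). That of scarb2a to scarb2c overlapped (exact permutation p = 0.3, adjusted p = 0.35). The 3 genes together were at 65.4, 78.6 and 86.5 TPM in pikfyve-delta8 samples, against 68.4, 66.2 and 66.3 TPM in WT samples. In TPM the family sum of pikfyve-delta8 replicate 1 was thus below all WT samples, and those of replicates 2 and 3 were above them. The place of replicate 1 depends on the scale, as TPM are scaled by transcript length and carry no TMM factor. In CPM replicate 1 was above all WT samples for scarb2c (54.9), within their range for scarb2a (56.4) and below them for scarb2b (38.3).

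The remaining members are less abundant. Transcripts of ctns (Gene ID 553594), for the cystine exporter cystinosin, were at 17.7, 19.4 and 17.7 CPM in pikfyve-delta8 samples, against 7.69, 7.71 and 8.65 CPM in WT samples. The genotypes were far apart and the log2 fold change was 1.19 ± 0.11 (adjusted p = 3.01e-05, edgeR). Transcripts of tmem192 (Gene ID 797335), for a lysosomal membrane protein that in mammalian cells serves as a handle to pull down lysosomes, were at 11.6, 11.7 and 13.0 CPM in pikfyve-delta8 samples, against 7.18, 4.99 and 6.72 CPM in WT samples. The genotypes did not overlap here either, and the log2 fold change was 0.94 ± 0.15 (adjusted p = 0.000798, edgeR), and its WT replicate 2 rested on 77 counts, the lowest count of the 10 genes.

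**Figure D3:**
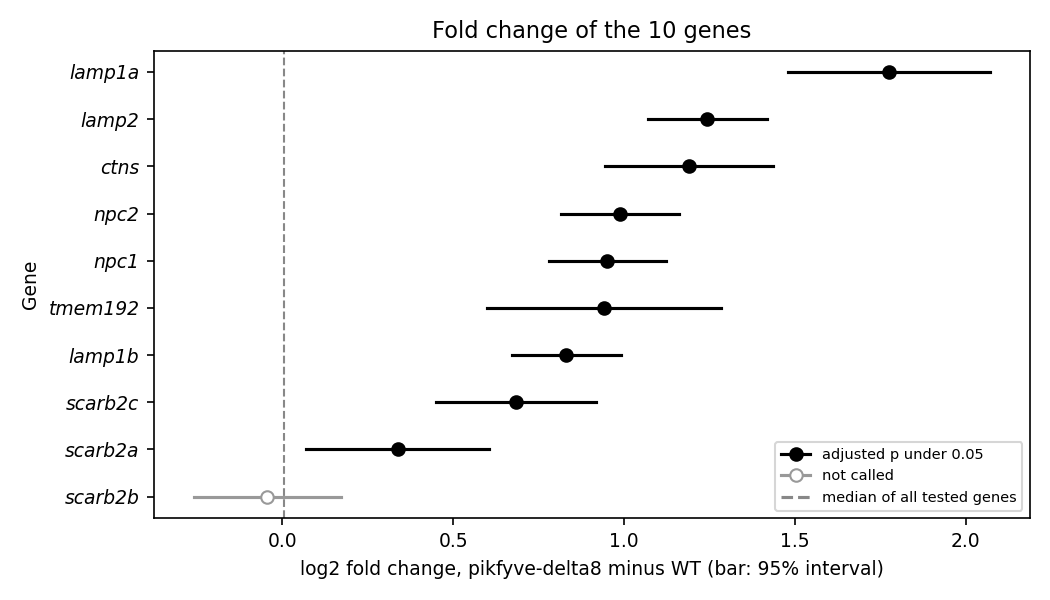
Log2 fold change (pikfyve-delta8 minus WT, horizontal axis) of the 10 genes with 95% intervals, ordered by size; filled points passed the test and the dashed line is the median of all tested genes at 0.0039. Values run from 1.77 for lamp1a to -0.04 for scarb2b, and scarb2b alone has an interval that includes 0.

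The order of the members' levels was compared per transcript length. In pikfyve-delta8 samples npc2 was highest at 181 TPM, followed by lamp2 at 88.8, lamp1a at 59.7, lamp1b at 48.6, npc1 at 40.5, scarb2c at 31.0, scarb2a at 27.9, scarb2b at 18.0, ctns at 15.9 and tmem192 at 11.6 TPM (means, n = 3). Neighbours whose samples overlapped were lamp1b and npc1, scarb2c and scarb2a, and scarb2b and ctns. In WT samples npc2 at 102 TPM and lamp2 at 42.1 TPM were again first, then lamp1b at 30.6 TPM. Below them scarb2a at 24.6, npc1 at 23.4, scarb2c at 21.6, scarb2b at 20.7 and lamp1a at 19.6 TPM formed a run in which each neighbour overlapped the next, and ctns at 7.79 and tmem192 at 6.77 TPM overlapped at the low end. The place of lamp1a was thus 3 of 10 in pikfyve-delta8 samples and 8 of 10 in WT samples. All 10 genes summed to 484, 533 and 551 TPM in pikfyve-delta8 samples, against 302, 296 and 299 TPM in WT samples.

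Among the pikfyve-delta8 samples, replicate 1 was the highest for none of the 10 genes. Replicate 2 was highest for 5 (lamp1a, lamp1b, npc2, scarb2c and ctns) and replicate 3 for the other 5 (lamp2, npc1, scarb2a, scarb2b and tmem192). The SD of log2 CPM was larger among pikfyve-delta8 than among WT samples for 6 of the 10. It was 0.27 in pikfyve-delta8 samples and 0.10 in WT samples for lamp1a, and 0.27 in pikfyve-delta8 samples and 0.04 in WT samples for scarb2a.

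Other lysosomal membrane genes, listed apart from the 10, were mostly higher or not called. Of 42 tested, 24 were higher, 2 lower and 16 not called, against 25.1% higher and 23.0% lower over all tested genes. Their median log2 fold change was 0.45, against 0.0039 for all genes. Transcripts of cd63, a tetraspanin of late endosomes and lysosomes, averaged 557 ± 53.0 CPM in pikfyve-delta8 samples and 178 ± 2.55 CPM in WT samples (SD, n = 3 each; adjusted p = 1.66e-06, edgeR), and those of litaf, a membrane-associated protein of late endosomes, averaged 58.9 ± 5.15 CPM in pikfyve-delta8 samples and 18.4 ± 0.64 CPM in WT samples (adjusted p = 1.69e-06, edgeR). The genes that fell were mfsd8, a lysosomal transporter gene, at -0.34 ± 0.10 on the log2 scale (adjusted p = 0.021, edgeR), and tmem63a, an ion channel gene, at -0.36 ± 0.13 (adjusted p = 0.0401, edgeR). The mfsd8 call was lost without pikfyve-delta8 replicate 2 (adjusted p = 0.0521), WT replicate 2 (adjusted p = 0.073) or WT replicate 3 (adjusted p = 0.0912), and that of tmem63a without each single sample except pikfyve-delta8 replicate 2, with DESeq2 (adjusted p = 0.113) and with the replicate number as a block (adjusted p = 0.0684).

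Of 8 tested relatives of the members in their protein families, 2 were higher, 1 lower and 5 not called, with a median log2 fold change of -0.0009. With 25.1% of all tested genes called higher and 23.0% lower, this count was no more than the background. The lists overlap, as lamp3 and slc66a1 were also counted among the other lysosomal membrane genes. Likewise, scarb1 and npc1l1 were also counted among the genes of cholesterol delivery, export and storage below. The relative lamp3 overlapped between genotypes, at 0.16 ± 0.16 on the log2 scale (adjusted p = 0.446, edgeR), and, like that of gm2a, its value was seen before it was named here. The gene scarb1, which encodes the high-density lipoprotein receptor related to Scarb2, was at 18.2, 17.1 and 13.6 CPM in pikfyve-delta8 samples, against 43.1, 39.5 and 46.8 CPM in WT samples. Every pikfyve-delta8 sample was below every WT sample, and the difference for scarb1 was -1.40 ± 0.12 on the log2 scale (adjusted p = 1.82e-05, edgeR). Another gene of that family, cd36, stood at -0.02 on the log2 scale (adjusted p = 0.914, edgeR) and is named here with its value known. The Npc1 relative npc1l1, for the intestinal cholesterol uptake protein, rose by 0.41 ± 0.08 on the log2 scale (adjusted p = 0.00278, edgeR), and slc66a1, a lysosomal exporter of basic amino acids in the family of ctns, by 0.70 ± 0.11 (adjusted p = 0.000522, edgeR). The npc1l1 call was lost on log2(TPM + 1) without a filter (adjusted p = 0.0567).

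The gene of glucocerebrosidase, the enzyme that mammalian LIMP-2 carries, and 2 genes of sphingolipid activator proteins also rose. Transcripts of gba were at 23.0, 29.9 and 28.2 CPM in pikfyve-delta8 samples, against 15.4, 15.7 and 13.6 CPM in WT samples, a log2 fold change of 0.86 ± 0.12 (adjusted p = 0.000337, edgeR). For psap, whose product is cut into activators of sphingolipid hydrolases, the mean was 744 ± 104 CPM in pikfyve-delta8 samples and 322 ± 1.90 CPM in WT samples (SD, n = 3 each; adjusted p = 1.64e-05, edgeR). The gene gm2a, for the activator that serves beta-hexosaminidase, rose by 0.58 ± 0.13 on the log2 scale (adjusted p = 0.0039, edgeR). These 3 were the genes with a row among 6 listed symbols. All 3 were called higher, against 25.1% higher and 23.0% lower over all tested genes.

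Genes of cholesterol delivery, export and storage were more often called higher than lower. Of 37 tested, 19 were higher, 3 lower and 15 not called, against 25.1% higher and 23.0% lower over all tested genes. Their median log2 fold change was 0.34, against 0.0039 for all genes. The low-density lipoprotein receptor gene ldlra was at 172, 141 and 209 CPM in pikfyve-delta8 samples, against 61.8, 60.6 and 58.9 CPM in WT samples. All pikfyve-delta8 samples were above all WT samples, with a log2 fold change of 1.53 ± 0.13 for ldlra (adjusted p = 2.25e-05, edgeR) and of 1.17 ± 0.11 for its paralogue ldlrb (adjusted p = 3.01e-05, edgeR). The gene tmem97, whose product binds Npc1 in mammals, rose by 1.34 ± 0.16 (adjusted p = 0.000166, edgeR). The cholesterol esterifying enzyme gene soat1 rose by 0.87 ± 0.15 (adjusted p = 0.00116, edgeR), or by 0.57 on log2(TPM + 1).

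The abca1a gene, for a transporter that passes cholesterol to lipoproteins, stood at 0.41 ± 0.13 on the log2 scale (adjusted p = 0.0299, edgeR), a call lost under 8 of the 17 alternatives, library size alone among them (adjusted p = 0.174), and the fits without a single WT sample (adjusted p = 0.0772 to 0.102). The members of the list that fell were scarb1, osbp2 and gramd1ba. Transcripts of osbp2, for an oxysterol-binding protein, averaged 12.2 ± 2.38 CPM in pikfyve-delta8 samples and 24.2 ± 1.33 CPM in WT samples (SD, n = 3 each; adjusted p = 0.000385, edgeR).

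Sterol synthesis genes were higher in 19 of 24 cases and lower in 0, and 5 were not called. Over all tested genes 25.1% were called higher and 23.0% lower. The median log2 fold change was 0.98 over the list and 0.0039 over all tested genes. The sterol demethylase gene cyp51 averaged 172 ± 40.5 CPM in pikfyve-delta8 samples and 41.5 ± 2.50 CPM in WT samples (SD, n = 3 each; adjusted p = 3.95e-05, edgeR). The gene srebf2, for the transcription factor that drives sterol synthesis, averaged 209 ± 25.1 CPM in pikfyve-delta8 samples and 109.5 ± 3.97 CPM in WT samples (adjusted p = 4.81e-05, edgeR). Replicate 2 was the lowest pikfyve-delta8 sample for every called gene of the list except hmgcrb. For cyp51 replicates 1, 2 and 3 were at 199, 125.5 and 191 CPM, and for srebf2 at 209, 184 and 234 CPM.

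**Figure D4:**
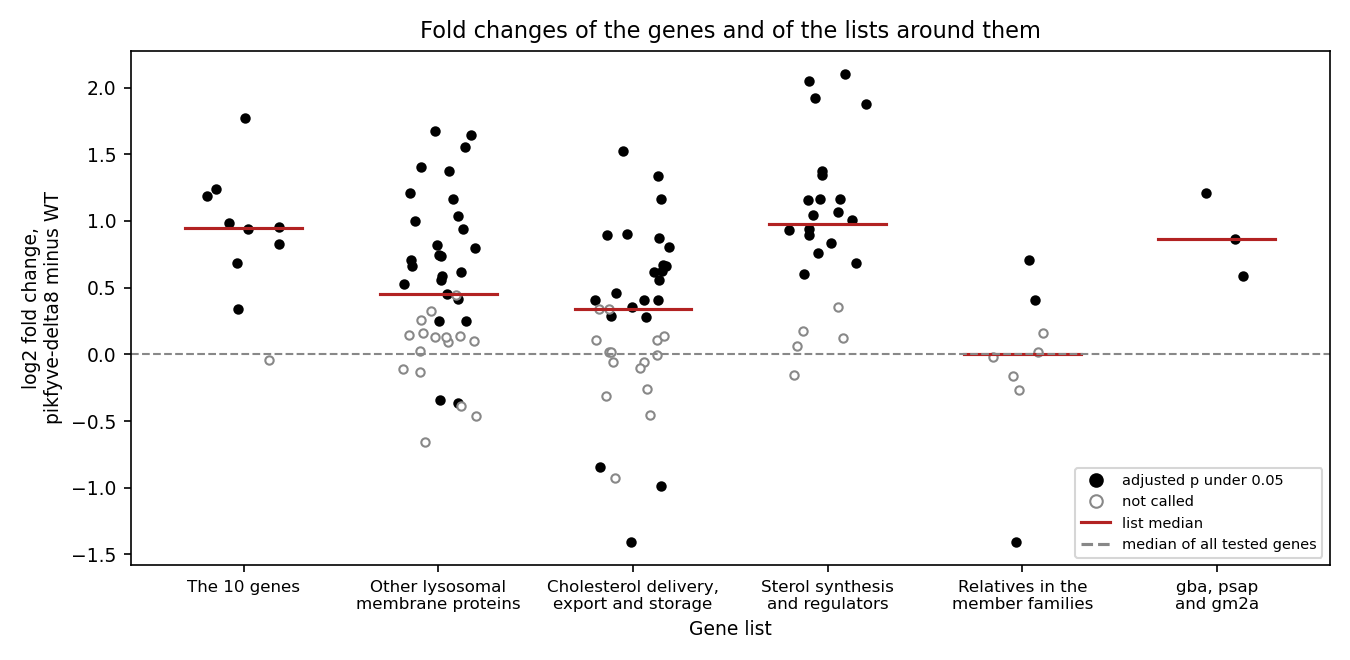
Log2 fold changes (pikfyve-delta8 minus WT, vertical axis) of the 10 genes and of 5 lists around them; each point is a gene, filled where it passed the test, red lines are list medians and the dashed line is the median of all tested genes. The 10 genes have a median of 0.95, sterol synthesis genes 0.98, other lysosomal membrane proteins 0.45 and cholesterol delivery, export and storage genes 0.34. The lists share some genes.

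Among 14097 named genes that averaged 50 counts or more, the 3 whose log2 CPM over the 6 samples, centred on its mean, lay closest to that of lamp2 were optn, an autophagy receptor gene, at a root mean square distance of 0.0152, lgals9l3, a galectin gene, at 0.037 and il12rb2l at 0.0436 on the log2 scale. With 2 genotypes, this likeness mostly measures a similar fold change.

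**Figure D5:**
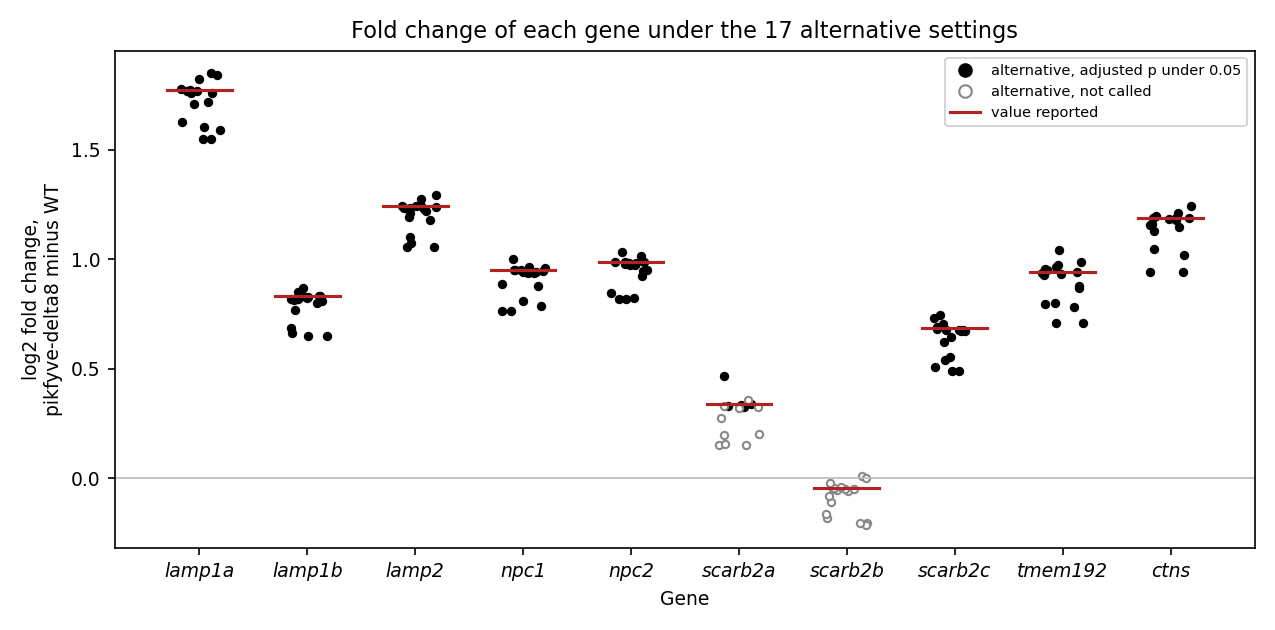
Log2 fold change (pikfyve-delta8 minus WT, vertical axis) of each of the 10 genes under 17 alternative settings (points, filled where adjusted p was under 0.05) and as reported (red lines). In all, 8 genes were called higher under every one of these settings, scarb2a under some of them and scarb2b under none. How many of all tested genes were called higher under every setting was not counted.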

How the data were processed

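The 6 zebrafish libraries (mRNA isolated, fragmented and amplified, then circularized, per the labels' protocols) were grouped by their titles. No source used here states whether strand was kept, so a gene and its antisense partner cannot be told apart. Bowtie2, RSEM 1.3.1, the build GRCz11 and DESeq2 1.4.5 are named, without roles or order, in the submitters' processing notes. The deposited table holds estimated counts, of which 10.7% to 11.6% per sample are not whole (tolerance 0.005). The deposited TPM values are scaled by transcript length to an equal total per sample, per the file headers, and the deposited FPKM values were not used, nor were the authors' group means.

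Rounded counts were tested with edgeR 4.0.16 (R 4.3.3; filterByExpr, TMM, robust quasi-likelihood F-test on genotype, two-sided, Benjamini-Hochberg over all tested genes at 0.05). The SE is the log2 fold change divided by the square root of F. Ratios between members used TPM, without a pseudocount, and two-sided exact permutation tests (SciPy 1.17.1). A floor of 3 counts equals 0.191 to 0.218 CPM, which covers counting error only. Alternatives were other scalings, other filters, DESeq2 1.42.0, limma 3.58.1 (voom, and trend on log2(TPM + 1) and log2(TPM + 0.1) with a TPM of at least 1 in at least 3 samples), a replicate block, and each sample left out.

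On simulated counts for this comparison (20892 genes fitted), the test recovered 98% of 50 genes at a fold of 2, 98% of 50 at 4, 80% of 50 at 0.5 and 100% of 50 at 0.25, and it called 19 of 20692 unchanged genes. Changed genes were drawn from a mean count of at least 50. Far fewer genes were changed than were called in the data, and as many up as down. Each simulated gene had the same dispersion in both genotypes, so these rates may not hold for the data.

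The members, lists and tests were chosen with earlier results of these data known. Named genes are the members, pikfyve, genes that act beside a member, and from each list up to 4 called genes with the smallest p, at most 2 per direction. Of 45, 40, 26, 10 and 6 listed symbols (other lysosomal membrane, cholesterol delivery, sterol synthesis, relatives, glucocerebrosidase), 43, 38, 25, 8 and 3 had a row. All 10 members matched GRCz12tu by gene identifier, used only for names and neighbours. Figures were drawn with matplotlib 3.10.9.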

Additional observations from a re-analysis of the deposited data

How the results depend on the processing

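Of the 10 members, 8 (all but scarb2a and scarb2b) were called higher under all 17 alternatives. Over all tested genes, 3394 (log2(TPM + 0.1)) to 5484 (without pikfyve-delta8 replicate 3) were called higher, depending on the setting. How many of all tested genes were called higher under every setting was not counted. The log2 fold change of lamp1a ran from 1.55 to 1.85, that of lamp1b from 0.65 to 0.87, of lamp2 from 1.06 to 1.29, of npc1 from 0.76 to 1.00, of npc2 from 0.82 to 1.03, of scarb2c from 0.49 to 0.74, of tmem192 from 0.71 to 1.04 and of ctns from 0.94 to 1.24. The call of scarb2a was lost under 10 of the 17, with an adjusted p of 0.0896 under upper-quartile scaling and 0.401 on log2(TPM + 1), and over all settings its adjusted p ran from 0.00191 to 0.447. The value of scarb2b, never called, ran from -0.22 to 0.0099 over all settings, with an adjusted p of 0.0849 to 0.991. With a sample left out it ran from -0.17 to 0.0099 and changed sign without pikfyve-delta8 replicate 1 (0.0099) or 2 (0.0017). The npc2 to npc1 difference of 0.04 ran from -0.035 to 0.13 with a sample left out and changed sign without pikfyve-delta8 replicate 2 (-0.032) and WT replicate 3 (-0.035), and the cause was not tested.

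With library size alone the median over all genes lay at -0.14 on the log2 scale, and this moved the split of calls to 3824 higher and 6561 lower, against 5295 higher and 4845 lower with TMM. On log2(TPM + 1) and log2(TPM + 0.1) 3407 and 3394 genes were higher and 6553 and 6478 lower. In these TPM fits other lysosomal membrane genes had 4 lower in each, cholesterol delivery genes 6 lower in each, and relatives of the members 3 lower in each. Fewer genes of the lists were higher. Other lysosomal membrane genes had 17 higher in each of these fits, against 24 as reported. Cholesterol delivery genes had 14 higher on log2(TPM + 1), against 19 as reported. Without a filter on TPM the relatives had 1 higher and 3 lower and the cholesterol delivery genes 5 lower. With library size alone 7 cholesterol delivery genes and 2 relatives were lower, and 19 other lysosomal membrane genes and 14 cholesterol delivery genes were higher. With a sample left out, 0 to 3 other lysosomal membrane genes and 3 to 5 cholesterol delivery genes were lower.

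The labels state no pairing by replicate number and no shared animals or days. Deviations of same-numbered samples from their genotype means correlated at -0.08, 0.08 and -0.04 across 16561 genes. Those of differently numbered samples correlated at -0.12 to 0.16. With 3 samples per genotype these values cannot exclude a pairing. With the replicate block 4967 genes were higher and 4608 lower, and 9 of the 10 members stayed higher.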
